A study of Mus musculus with 12 samples.

Results

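The genes described here are those that the deposited annotation places on the KEGG map of protein processing in the endoplasmic reticulum (ER). The annotation lists 169 genes on that map, and 13 of them were left out by symbol (Atf4, Ddit3, Eif2ak1 to Eif2ak4, Eif2s1, Ppp1r15a, Mbtps1, Mbtps2, Nfe2l2, Bax and Sar1b). This left 156 of the 56980 genes in the table, of which 141 had enough counts to be tested. Expression was measured by bulk RNA sequencing of whole liver from 12 mice of the strain B6.Cg-Lepob/J (ob/ob, genotype Lep-/-), which carry no functional leptin and become obese on ordinary chow. All 12 mice were 8 weeks old at the start, ate freely for 3 weeks and were 11 weeks old at the end. The standard protein diet (SPD) supplied 25% of energy as protein and was eaten by 6 mice. The low protein diet (LPD) supplied 5% and was eaten by the other 6. All mice were leptin-deficient, so no lean animals enter any comparison, and the labels name no sex.

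Secreted and membrane proteins enter the ER through the Sec61 channel, receive N-linked glycans and fold with the help of chaperones, lectins and disulfide-forming enzymes. Folded cargo leaves in COPII-coated vesicles, whereas proteins that fail to fold are drawn back into the cytosol and degraded by the proteasome, a route called ER-associated degradation (ERAD). Sensors in the ER membrane adjust this capacity through the unfolded protein response, and hepatocytes, which secrete most plasma proteins, carry an extensive rough ER.

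Libraries held between 19374676 and 23710930 counts each, and the members took 1.45% to 1.63% of the counts in SPD livers and 1.79% to 1.94% in LPD livers. The first principal component of log2 expression held 47.1% of the variance and separated the diets (-32.1 to -24.7 in SPD and 15.3 to 48.7 in LPD). LPD replicates 2 and 5 were farthest from the SPD livers (48.7 and 44.6, the next at 22.5), so results are also given without these libraries. LPD replicate 1 is an LPD sample by its title and library code, but its treatment text names the 25% diet. It was kept as LPD, and its alternative assignment is treated with the other alternatives. Sample codes begin with SP1 or SP2 in all SPD livers and with LP4 or LP5 in all LPD livers, so that a difference between these code sets and the diet cannot be told apart. Hepatocyte markers summed to 69020 to 79060 CPM (depth-normalised counts, scaled between libraries) in SPD livers and 57680 to 83010 CPM in LPD livers, with 3 of 5 higher under LPD. Most of that sum was Alb, at means of 65530 and 57230 CPM, which did not pass (log2 fold change -0.20 ± 0.11). Of the 6 stellate cell markers, 3 were lower under LPD, and their sum was 454.7 to 647.4 CPM in SPD and 333.5 to 561.1 CPM in LPD livers. Endothelial markers (1 of 5 lower) summed to 253.8 to 284.1 and 220.3 to 265.8 CPM, and macrophage markers (1 of 6 higher, 1 lower) to 335.5 to 404.8 and 296.4 to 387.8 CPM. Among cells with an enlarged ER, the plasma cell genes Jchain and Mzb1 stayed under 1.1 CPM in every liver, and the acinar pancreas genes Cpa1 and Cel were at 0 counts in all 12 libraries. The plasma and B cell list (1 of 4 tested lower) summed to 281.3 to 394.9 and 287 to 374.7 CPM, nearly all of it Sdc1. Its lower gene was Ighm, at means of 14.2 CPM in SPD and 3.58 CPM in LPD livers. The log2 fold change of Ighm was -1.98 ± 0.38 (edgeR adjusted p = 0.00076). Cholangiocyte markers (5.08 to 7.69 and 4.51 to 9.98 CPM, none of 4 called), T and NK cell markers (0.87 to 3.31 and 1.35 to 2.53 CPM, the 1 tested not called) and the pancreas list (7.44 to 10.4 and 5.57 to 7.38 CPM, nearly all Cela1, which was lower) were low. In bulk tissue, fewer cells of a type and less RNA per cell cannot be told apart.

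Under LPD, 54 of the 141 tested members were higher (38.3%) and 21 were lower (14.9%), and 66 did not pass an adjusted p of 0.05 in edgeR's quasi-likelihood test. Across all 13768 tested genes, 39.9% were called in either direction, 20.7% as higher and 19.2% as lower. The median log2 fold change of the members was 0.10, against -0.00059 over all tested genes. No overlap between the livers of the diets was seen for 39 members with LPD above and 11 with LPD below, where the shares over all tested genes were 10.2% and 9.73%. Changes were small: 6 members rose by at least 1.5-fold and 1, Herpud1, by at least 2-fold, while 4 fell by at least 1.5-fold and 1, Bag2, by at least 2-fold. Of all 13768 tested genes, 555 rose by at least 1.5-fold and 190 by at least 2-fold, while 1082 and 469 fell by as much. Summed over all members, expression was 15480 ± 381 CPM (SD, n = 6) in SPD livers and 18180 ± 1070 CPM in LPD livers, and the ranges did not overlap (15040 to 15933 and 17244 to 19966 CPM). Without LPD replicates 2 and 5, 47 members were higher and 16 lower, where over all tested genes 2352 were higher and 2234 lower. In the 4 SP1 and 4 LP4 libraries alone, 41 members were higher and 12 lower, where over all tested genes 1827 were higher and 1693 lower. Of the 80 called genes followed across alternatives, which are all called members and 1 leading gene from each of 5 neighbouring lists, 23 lost their call there: Sec62, Rpn1, Casp12, Hsp90b1, Sec23b, Edem3, Hspa2, Dnajb2, Dnajc5, Ckap4, Man1c1, Lman2, Map2k7, Traf2, Svip, Ubqln1, Ubqln2, Ube2d3, Ube2d1, Fbxo6, Ngly1, Ubxn8 and Alg11. With LPD replicate 1 counted as SPD, 9 did so: Hspa4l, Hsp90aa1, Dnajb2, Traf2, Atf6b, Svip, Ube2d3, Ube4b and Ube2j2.

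By role, the counts were as follows, and differences between roles were not tested. Of the 8 luminal chaperones, 6 rose and none fell, and of the 7 disulfide-forming enzymes, 5 rose and none fell. Among 21 tested ERAD components at the ER membrane, 11 rose and 3 fell, and among 16 glycan-trimming enzymes and lectins, 7 rose and 2 fell. Of the 28 tested cytosolic ERAD factors, 6 were higher and 6 lower (21.4% each), and of the 16 tested cytosolic chaperones 4 and 4 (25% each), shares near those over all tested genes. The translocon had 3 of 13 tested genes higher (23.1%) and 1 lower, also near the 20.7% higher over all tested genes. The COPII coat had 3 of 11 higher (27.3%) and 1 lower. Of the 6 oligosaccharyltransferase genes, 2 were higher (33.3%) and none lower. The sensor group had 7 of 15 higher (46.7%) and 4 lower (26.7%).

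**Figure D1:**
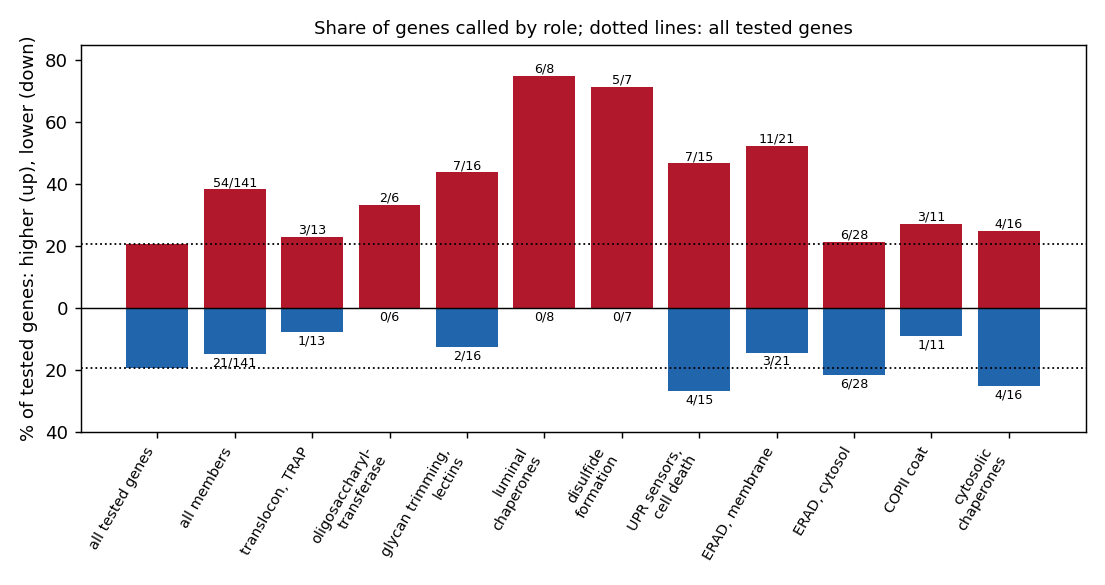
Percentage of tested genes called higher (red, upward) or lower (blue, downward) under LPD for all tested genes, all members and each of the 10 roles, with the number called over the number tested. Dotted lines mark the shares over all tested genes, 20.7% and 19.2%. Luminal chaperones (6 of 8) and disulfide-forming enzymes (5 of 7) have the tallest upward bars and no downward bar.

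**Figure D2:**
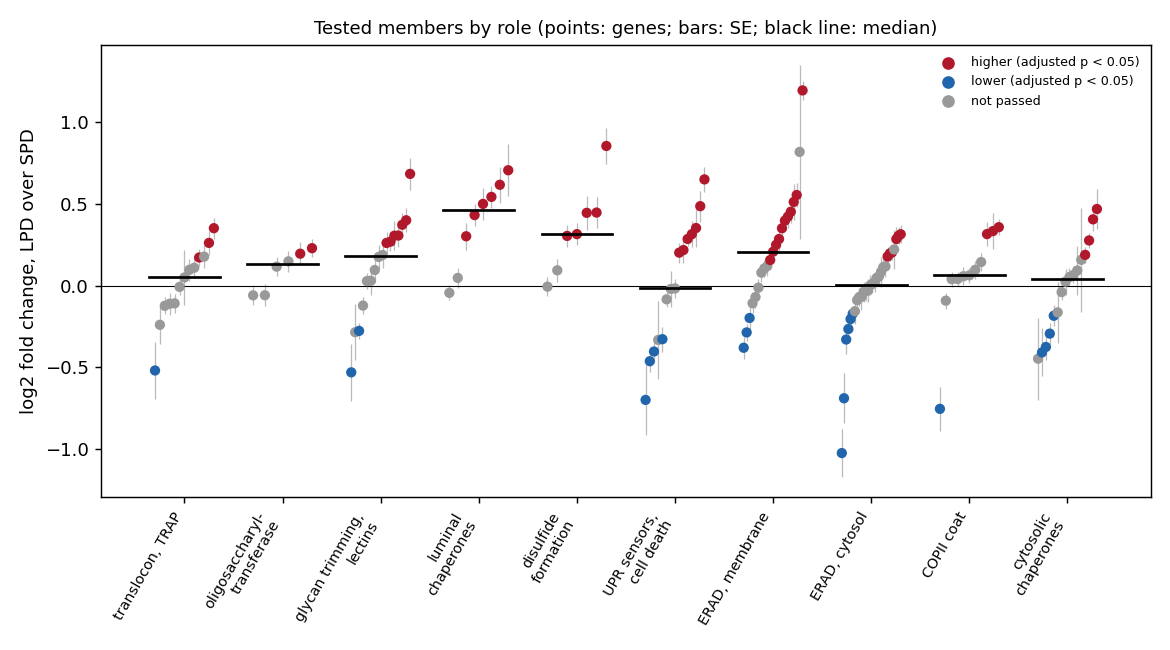
Log2 fold change (LPD over SPD) of each of the tested members with an assigned role, by role. Points are genes coloured by call, grey bars are standard errors and black lines are role medians. The luminal chaperones have a median of 0.47 and the disulfide-forming enzymes of 0.32, whereas the medians of the sensor, cytosolic ERAD and cytosolic chaperone roles lie within 0.04 of 0.

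All members with a promoter entry, whatever their call, were searched for sequence elements near their start sites. The ER stress element is the classical site of Atf6-containing complexes and reads CCAAT, 9 free bases, CCACG. It was searched on both strands from 250 bases before to 50 bases after each RefSeq start site (GRCm38.p6). Of the 156 members, 129 matched a promoter entry by symbol. The element occurred in 9 of the 129 (6.98%) and in 37 of all 27025 genes (0.137%). Of the members that rose, 7 of 44 held it (15.9%), against 0 of 18 that fell and 1 of 55 that did not pass (1.82%). The ninth, Calr4, had at most 2 counts in any library. The element was searched because it is a known ER stress site, so its excess among ER genes is no independent result. These shares were not tested. The stretches around the element are shown because they mark the members from different roles that share it, with the element in capitals. It reads as written in Hspa5, Dnajc3, Canx and Syvn1 and on the other strand, as CGTGG to ATTGG, in Calr, Ero1b and Derl3, while Hsp90b1 has a copy in each orientation.
Hspa5: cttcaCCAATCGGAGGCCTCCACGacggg
Hsp90b1: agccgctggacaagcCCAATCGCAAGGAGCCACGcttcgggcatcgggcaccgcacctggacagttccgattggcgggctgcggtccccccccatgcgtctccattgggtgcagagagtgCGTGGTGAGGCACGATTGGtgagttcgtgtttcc
Dnajc3: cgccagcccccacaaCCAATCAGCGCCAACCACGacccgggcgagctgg
Calr: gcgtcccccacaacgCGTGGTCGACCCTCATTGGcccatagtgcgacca
Canx: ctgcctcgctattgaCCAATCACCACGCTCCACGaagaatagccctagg
Ero1b: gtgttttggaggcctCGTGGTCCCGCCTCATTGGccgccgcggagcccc
Syvn1: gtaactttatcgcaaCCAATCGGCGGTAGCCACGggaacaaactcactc
Derl3: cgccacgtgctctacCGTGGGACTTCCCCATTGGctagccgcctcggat
In the same order these lie at chr2:34772020-34772048 (plus strand), chr10:86705518-86705671 (minus strand), chr14:118937812-118937860 (plus strand), chr8:84847060-84847108 (minus strand), chr11:50325785-50325833 (minus strand), chr13:12565667-12565715 (plus strand), chr19:6046517-6046565 (plus strand) and chr10:75893227-75893275 (plus strand). The elements end 47, 89, 87, 144, 127, 183, 26 and 138 bases before the RefSeq start, counting for Hsp90b1 the nearer copy. The Hspa5 stretch falls inside an exon of a longer GENCODE transcript.

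A shorter element, ATTGG, 1 free base, CCACG, known as ER stress element II, occurred in 2 of 129 members (1.55%), Herpud1 and Dnajb11, and in 12 of all genes (0.0444%). Herpud1 is shown because it had the largest rise of the members. Its element ends 42 bases before the start.
Herpud1: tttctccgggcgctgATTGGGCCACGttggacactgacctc
This stretch lies at chr8:94386362-94386402 (plus strand). Outside the map, 10 genes held ER stress element II and 7 of them were tested. Krtcap2, Rbm39 and Rcl1 rose, none fell and 4 did not pass. Their median log2 fold change was 0.17, against 0.85 for the 2 members. This element too was searched as a known ER stress site, and its shares were not tested. The unfolded protein response element TGACG directly followed by TGG occurred in 6 members (4.65%) against 0.714% of all genes. Of those, Txndc5 and Ube2j1 rose and Mapk8, Sec23a, Sec24d and Vcp did not pass. A heat shock element, searched as GAA, 2 free bases, TTC, 2 free bases, GAA and as its complement, occurred in Hsph1, Sec62 and Calr4 (2.33%, against 0.662% of all genes). Both tested holders, Hsph1 and Sec62, rose. Outside the map, 28 genes held the ER stress element and 10 of them were tested. There, Creld2, Pdia6, Hnrnpa3 and Acnat2 rose, Acacb and Spats2l fell, and the median log2 fold change was 0.078, against 0.58 for the 8 tested members that hold it. A match describes these letters only.

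The sensor group covers the stress sensors, their transcription factors and the kinases and proteases downstream. Xbp1, the transcription factor whose mRNA is spliced by the sensor Ern1 (IRE1), ranged from 100.02 to 131 CPM in SPD livers (median 114) and from 161 to 211 CPM in LPD livers (median 176). No LPD liver overlapped an SPD liver, and the log2 fold change was 0.65 ± 0.08 (SE; adjusted p = 1.3e-05). Counts per gene do not tell the spliced from the unspliced mRNA. Ern1 itself was higher too, with medians of 32.3 and 43.1 CPM and no overlap (25.9 to 35.7 and 37.1 to 52.5 CPM), a log2 fold change of 0.49 ± 0.09 (adjusted p = 0.00089). Atf6, the membrane-bound transcription factor released by proteolysis, went from 97.2 to 105 CPM to 118 to 129 CPM, a small but non-overlapping rise (0.29 ± 0.04, adjusted p = 0.00013). Its relative Atf6b rose by 0.22 ± 0.08 (adjusted p = 0.0439), a call that was lost when replicate 1, 2, 4 or 6 of either diet was left out (adjusted p 0.060 to 0.101). Xbp1 (chr11:5520659-5525893, plus strand, GRCm38) stood at 0.61 without LPD replicates 2 and 5.

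Downstream of Ern1, the kinases Map3k5 (ASK1) and Map2k7 rose by 0.32 ± 0.08 and 0.20 ± 0.06, and the adaptor Traf2 by 0.35 ± 0.12 (adjusted p = 0.0056, 0.0155 and 0.0272). The Traf2 call was lost when SPD replicate 1, 2 or 5 or LPD replicate 2 was removed (adjusted p 0.058 to 0.0628). The JNK genes Mapk8 (-0.02 ± 0.06) and Mapk9 (-0.08 ± 0.04) did not pass, and Mapk10 had no count. Several protease and apoptosis genes of the map were lower instead. The calpain Capn2 ranged from 68.7 to 87.5 CPM in SPD and from 51.1 to 62.6 CPM in LPD livers, and the calpain Capn1 from 27.2 to 30.5 and 18.1 to 24.01 CPM. Neither gene overlapped between diets, and they fell by 0.46 ± 0.07 and 0.40 ± 0.07 on the log2 scale (adjusted p = 6.5e-05 and 0.00021). Bak1, which permeabilises the outer mitochondrial membrane, was also lower without overlap (-0.33 ± 0.08, adjusted p = 0.0032). Casp12, an ER-associated caspase, was lower at a low level (2.54 and 1.61 CPM at the medians, -0.70 ± 0.22, adjusted p = 0.0171), and its call was lost without LPD replicates 2 and 5 (adjusted p = 0.0784). The antiapoptotic gene Bcl2 (-0.33 ± 0.24) and the ER membrane protein gene Wfs1 (-0.02 ± 0.11) did not pass. With 7 members higher and 4 lower of 15 tested, the group's median was -0.017. That median was not stable in sign: it ran from -0.022 to 0.034 when 1 library was left out and was 0.012 without LPD replicates 2 and 5. Summed over the group, expression was 538 to 573 CPM in SPD and 612 to 667 CPM in LPD livers, without overlap. Most of this rise was Xbp1, whose mean went from 114 to 180 CPM while the mean of the sum went from 558 to 636 CPM.

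Among the luminal chaperones, the expression of Hspa5 (BiP, the main ER Hsp70) was 329.8 to 467 CPM in SPD livers (median 388) and 520.1 to 806 CPM in LPD livers (median 566). The highest SPD liver lay below the lowest LPD liver, and Hspa5 rose by 0.62 ± 0.11 on the log2 scale, a fold of 1.53 (adjusted p = 0.00047). Without LPD replicates 2 and 5 the value was 0.48 (adjusted p = 0.00098). The genes of 3 of its cofactors, Dnajc3, Dnajb11 and Sil1, rose as well. Dnajc3, a J-domain protein that also inhibits the kinase PERK, stood at 145 to 176 CPM in SPD livers (median 156) and 208 to 268 CPM in LPD livers (median 229), again without overlap (0.54 ± 0.07, adjusted p = 2.5e-05). Dnajb11, another J-domain partner, rose by 0.50 ± 0.10 and the nucleotide exchange factor Sil1 by 0.43 ± 0.07, both without overlap (adjusted p = 0.00081 and 0.00015).

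Hyou1 (Grp170), a large exchange factor of Hspa5, had the largest fold change of the chaperones but the widest LPD range, 74.1 to 147 CPM against 47.1 to 74.2 CPM in SPD livers. The diets overlapped by less than 1 CPM, the log2 fold change was 0.71 ± 0.16 (adjusted p = 0.0026), and it was 0.46 without LPD replicates 2 and 5, over 1.5 times less. Hsp90b1 (Grp94), the ER member of the Hsp90 family, ranged from 389 to 504 and from 478 to 628 CPM and rose by 0.30 ± 0.08 (adjusted p = 0.01), a call lost without LPD replicates 2 and 5 (adjusted p = 0.0539). Not every J-domain gene moved: Dnajc10, an ER disulfide reductase, was at -0.04 ± 0.05 and Dnajc1 at 0.05 ± 0.06, and neither passed (adjusted p = 0.47 and 0.58). Summed over the 8 genes, chaperone expression was 1194 ± 127 CPM in SPD livers and 1646 ± 223 CPM in LPD livers (n = 6 each), with ranges of 1054.7 to 1371.5 and 1459.8 to 2059.4 CPM. The elements of Hspa5, Hsp90b1 and Dnajc3 are printed above.

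**Figure D3:**
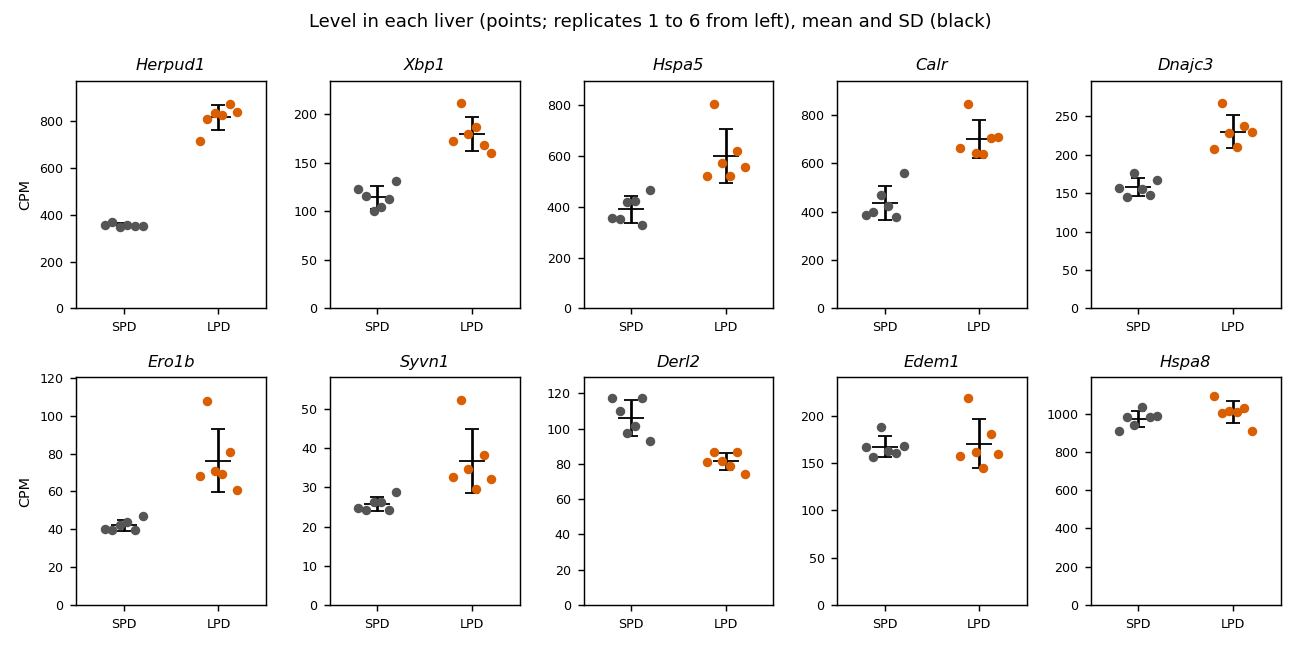
CPM in each liver for 10 members, with SPD replicates 1 to 6 (grey) and LPD replicates 1 to 6 (orange) from left to right in each group; black marks are mean and SD (n = 6), and axes start at 0. Herpud1, Xbp1, Hspa5, Calr, Dnajc3, Ero1b and Syvn1 have every LPD liver above every SPD liver, Derl2 every LPD liver below, and Edem1 and Hspa8 overlap.

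Disulfide formation in the ER is driven by the oxidases Ero1a and Ero1b, which recharge the protein disulfide isomerases. Ero1b was at 39.6 to 46.8 CPM in SPD livers (median 41.3) and 60.9 to 108 CPM in LPD livers (median 69.9). The LPD livers were spread over a wide range, yet all lay above the SPD livers, and Ero1b rose by 0.86 ± 0.11 (adjusted p = 3.1e-05; 0.68 without LPD replicates 2 and 5). Ero1a, its paralog, ranged from 27.7 to 32.4 and 27.1 to 34.5 CPM and did not pass (0.09 ± 0.07, adjusted p = 0.3). P4hb, the prototype disulfide isomerase, was the most abundant member per length, at 1011 TPM in SPD livers. It stood at 1497 to 1716 CPM in SPD livers (median 1583) and 1806 to 2195 CPM in LPD livers (median 1950.4), a rise of 0.32 ± 0.07 without overlap (adjusted p = 0.0015). Txndc5 likewise rose without overlap (0.30 ± 0.07, adjusted p = 0.0017). Pdia3, the isomerase that works with calnexin and calreticulin, and Pdia4 rose by 0.45 ± 0.10 and 0.45 ± 0.11, with overlap (adjusted p = 0.0018 and 0.0036). Without LPD replicates 2 and 5, Pdia4 was at 0.29. Erp29, a thioredoxin-fold protein without the active cysteines, had -0.01 ± 0.06 (adjusted p = 0.95). The 7 genes summed to 2230 ± 160 CPM and 2827 ± 236 CPM, without overlap (2086 to 2443.1 and 2552.2 to 3155.8 CPM).

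Glycoproteins are retained for folding by the lectins calnexin and calreticulin while glucose residues are removed and put back. Calr, the soluble lectin, was at 377 to 558 CPM in SPD livers (median 409.7) and 637 to 845 CPM in LPD livers (median 682). SPD replicate 6 and LPD replicate 2 were high within their groups, no livers overlapped, and Calr rose by 0.68 ± 0.10, a fold of 1.61 (adjusted p = 7.4e-05; 0.61 without LPD replicates 2 and 5). Canx, its membrane-bound relative, rose by 0.31 ± 0.07 without overlap, from 292 to 336 to 351 to 460.3 CPM (adjusted p = 0.0023). Ganab, the catalytic subunit of the glucosidase that makes clients leave or rejoin the lectins, rose by 0.37 ± 0.07 (adjusted p = 0.00095). Its regulatory subunit Prkcsh (0.03 ± 0.05), the first glucosidase Mogs (0.18 ± 0.07) and the glucosyltransferase Uggt1 (0.19 ± 0.08), which tags misfolded clients for another round, did not pass (adjusted p = 0.69, 0.0608 and 0.0703). Uggt1 was at 0.12 without LPD replicate 2. The cargo lectins Lman1 and Lman2, which carry glycoproteins out of the ER, rose by 0.40 ± 0.07 and 0.31 ± 0.09 without overlap (adjusted p = 0.00054 and 0.0132). Lman2 was at 0.15 without LPD replicates 2 and 5.

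Genes of mannose trimming, only part of which marks glycoproteins for degradation, went in several directions. Man1a rose by 0.27 ± 0.06 without overlap and Edem3 by 0.26 ± 0.07 with overlap (adjusted p = 0.0019 and 0.0076). Edem3 was at 0.17 when only SP1 and LP4 libraries entered (adjusted p = 0.147). Edem2 was lower in every LPD liver, 47.5 to 51.3 CPM against 56.2 to 68.0 CPM (-0.28 ± 0.05, adjusted p = 0.00057). Edem1 did not pass, at 0.03 ± 0.09 (adjusted p = 0.81), with LPD replicate 2 highest at 219 CPM and the others from 145 to 181 CPM. Its sign turned without that liver (-0.053). The mannosidase gene Man1c1 was lower (-0.53 ± 0.17, adjusted p = 0.0236), a call that was lost without SPD replicate 2 (adjusted p = 0.0546) and without LPD replicates 2 and 5 (adjusted p = 0.0713).

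The 6 oligosaccharyltransferase genes, whose complex attaches the N-glycan, showed small values. Stt3b, the catalytic subunit that can act after translation, went from 110.3 to 124 to 126 to 151 CPM without overlap, a rise of 0.23 ± 0.06 (adjusted p = 0.004). Rpn1 rose by 0.20 ± 0.07 (adjusted p = 0.0347), a call that was lost on removal of SPD replicate 1, 2 or 5 or of LPD replicate 2 or 3 (adjusted p 0.0678 to 0.082). Stt3a, the catalytic subunit that works at the translocon, was at 0.12 ± 0.06, Ddost at 0.15 ± 0.06, Rpn2 at -0.06 ± 0.06 and Dad1 at -0.06 ± 0.07, and none of these passed. Ddost was at 0.091 without LPD replicate 2.

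At the translocon, Sec61a1, the channel itself, ranged from 124 to 145 CPM in SPD and from 154 to 204 CPM in LPD livers. The ranges did not overlap, and it rose by 0.35 ± 0.07 (adjusted p = 0.0006). The channel's small subunits did not pass: Sec61b was at -0.11 ± 0.07 (adjusted p = 0.21) and Sec61g at -0.24 ± 0.12 (adjusted p = 0.12). Sec62, which helps short secretory proteins enter, rose by 0.17 ± 0.05 and Ssr2, a subunit of the translocon-associated complex TRAP, by 0.26 ± 0.07 (adjusted p = 0.0171 and 0.0103). Without LPD replicates 2 and 5 both calls were lost (adjusted p = 0.0576 and 0.0559), which left Sec61a1 as the only risen gene of the 13 tested. The other TRAP genes, Ssr1 (0.18 ± 0.07), Ssr3 (-0.12 ± 0.05) and Ssr4 (-0.01 ± 0.05), did not pass, nor did Sec63, Tram1 and Rrbp1. Ckap4, which shapes ER sheets, was lower (-0.52 ± 0.17, adjusted p = 0.0264), and its call was lost on removal of SPD replicate 4 or of LPD replicate 3 or 5 (adjusted p 0.0501 to 0.0606).

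The largest rise of all members was in the membrane part of ERAD. Herpud1 (chr8:94386438-94395377, plus strand), a membrane protein with a ubiquitin-like domain that organises the retrotranslocation complex, was at 346 to 369 CPM in SPD livers (median 354) and 712 to 871 CPM in LPD livers (median 829). The SPD livers were tightly grouped and every LPD liver lay far above them. The log2 fold change was 1.20 ± 0.06, a fold of 2.29 (adjusted p = 3.1e-09), and it was 1.18 without LPD replicates 2 and 5. The ubiquitin ligase at the centre of that complex, Syvn1 (Hrd1), ranged from 24.1 to 28.8 and from 29.7 to 52.4 CPM, and its cofactor Sel1l from 136 to 159 and 167 to 222 CPM. Both rose without overlap, by 0.51 ± 0.11 and 0.35 ± 0.08 (adjusted p = 0.0021 and 0.002). Without LPD replicates 2 and 5 the values were 0.33 and 0.23. The substrate-binding lectins of the complex, Os9 (0.12 ± 0.06) and Erlec1 (-0.11 ± 0.06), did not pass.

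Other ligases of the ER membrane rose too. Rnf185 was at 32.5 to 37.6 CPM in SPD livers (median 35.3) and 44.6 to 61.5 CPM in LPD livers (median 51.8) and rose by 0.56 ± 0.08, and Marchf6 rose by 0.42 ± 0.07 (adjusted p = 4.4e-05 and 0.00018). Neither overlapped between diets. Rnf5 was at -0.07 ± 0.07 and did not pass. The ubiquitin-conjugating enzymes that serve these ligases, Ube2g2, Ube2j1 and Ube2j2, rose by 0.45 ± 0.07, 0.21 ± 0.04 and 0.29 ± 0.07 (adjusted p = 0.00014, 0.0018 and 0.0048). Selenos, which anchors the ATPase Vcp at the membrane, rose by 0.25 ± 0.06 (adjusted p = 0.0053), and Ubxn8 by 0.16 ± 0.05, the latter lost without SPD replicate 2, SPD replicate 6 or LPD replicate 5 (adjusted p 0.0546 to 0.0633).

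The derlins, which form part of the exit channel, divided. Derl1 ranged from 127 to 141 CPM in SPD and from 165 to 199 CPM in LPD livers, a rise of 0.40 ± 0.05 (adjusted p = 4.7e-05). Derl2 ranged from 93.0 to 117 and from 74.1 to 86.9 CPM and fell by 0.38 ± 0.07 on the log2 scale (adjusted p = 0.00037). Neither gene overlapped between diets. Derl3 had low counts, 0.435 to 3.14 and 0.728 to 5.99 CPM, and did not pass (0.82 ± 0.53, adjusted p = 0.24), and its sign turned without LPD replicates 2 and 5 (-0.045). Bcap31, a sorting factor for membrane proteins, was lower without overlap (-0.29 ± 0.05, adjusted p = 0.00074). Svip, an inhibitor of ERAD that binds Vcp, was lower by the test alone (-0.20 ± 0.08, adjusted p = 0.0472). That call was lost on removal of any 1 of 9 libraries, SPD 1, 3, 5 and 6 and LPD 1, 2, 3, 4 and 6 (adjusted p 0.0629 to 0.110).

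In the cytosol, Vcp, the ATPase that pulls substrates out of the membrane, was abundant and did not pass (371 to 436 and 361 to 413 CPM, -0.07 ± 0.05, adjusted p = 0.33). Its cofactors Ufd1, Nsfl1c, Plaa and Ubxn1 did not pass either. Shuttle factors that carry ubiquitinated proteins to the proteasome rose in part: Rad23b by 0.30 ± 0.05, Ubqln1 by 0.20 ± 0.05 and Ubqln4 by 0.29 ± 0.07 (adjusted p = 0.00029, 0.0037 and 0.0062), whereas Ubqln2 was lower (-0.20 ± 0.05, adjusted p = 0.0079). Ngly1, which strips N-glycans from retrotranslocated proteins, rose by 0.18 ± 0.06 (adjusted p = 0.0222; 0.0510 without LPD replicate 5). Stub1 (CHIP), a ligase that works with Hsp70, rose by 0.31 ± 0.05 without overlap (adjusted p = 0.00035). Bag2, an inhibitor of that ligase, fell to a fold of 0.49, from 2.28 to 3.14 CPM to 1.20 to 1.55 CPM (-1.03 ± 0.14, adjusted p = 6.2e-05). It was the largest fall of the members, at a low level and without overlap. Lower too were the ligase genes Ube4b (-0.17 ± 0.05) and Fbxo6 (-0.33 ± 0.09), the last of which binds glycans of its substrates (adjusted p = 0.0094 and 0.0084). The conjugating enzymes Ube2d3 and Ube2d1 went in opposite directions (0.20 ± 0.05 and -0.27 ± 0.09, adjusted p = 0.0038 and 0.0247). The Ube2d1 call was lost without SPD replicate 5 or LPD replicate 4 (adjusted p 0.0542 and 0.0621), and the Fbxo6 call without LPD replicates 2 and 5 (adjusted p = 0.050).

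COPII coats collect cargo at ER exit sites. Preb (Sec12), which activates the coat GTPase, rose by 0.32 ± 0.07, the outer coat gene Sec31a by 0.36 ± 0.05 and the inner coat gene Sec23b by 0.33 ± 0.11, all without overlap (adjusted p = 0.0028, 5.9e-05 and 0.0237). The Sec23b value rested on LPD replicate 2, at 55.0 CPM against 32.8 to 36.9 CPM in the other LPD livers, and was 0.20 without that liver. Its call was lost without SPD replicate 3 (adjusted p = 0.0501). Sec31b was lower without overlap, at 4.83 to 7.97 and 2.97 to 4.54 CPM (-0.75 ± 0.13, adjusted p = 0.00043). The remaining 7 coat genes, the GTPase Sar1a, Sec13, Sec23a and the 4 cargo-binding Sec24 genes, had values between -0.09 and 0.14 and did not pass.

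The cytosolic chaperones of the map serve folding outside the ER, and they were not tested against the ER roles. Hspa8, the constitutive Hsp70, ranged from 912 to 1034 CPM in SPD livers and from 908 to 1093 CPM in LPD livers and did not pass (0.05 ± 0.06, adjusted p = 0.5). Hsp90ab1, the constitutive Hsp90, did not pass either (0.07 ± 0.05, adjusted p = 0.31), while Hsp90aa1, its inducible relative, was lower (-0.29 ± 0.06, adjusted p = 0.002). The J-domain genes Dnaja1, Dnaja2 and Dnajc5 rose without overlap, by 0.41 ± 0.07, 0.28 ± 0.04 and 0.19 ± 0.05 (adjusted p = 0.00028, 0.00021 and 0.0053), and the Hsp110 gene Hsph1 rose by 0.47 ± 0.12 with overlap (adjusted p = 0.0059). Its relative Hspa4l was lower (-0.38 ± 0.08, adjusted p = 0.0015). The stress-induced genes Hspa1a and Hspa1b were low, with means of 1.63 and 7.55 CPM in SPD livers, and did not pass. Their near-identical sequences make their separate values uncertain, and the same holds for the Ube2d genes where reads were split between copies. Dnajb1, another heat shock gene, was at 0.02 ± 0.08. Hspa2 and Dnajb2 were lower (-0.41 ± 0.15 and -0.18 ± 0.06, adjusted p = 0.0364 and 0.0322). The Hspa2 call was lost without any of 7 libraries (SPD 1 to 4 and LPD 2, 4 and 5, adjusted p 0.0505 to 0.0774). The Dnajb2 call was lost without any of 5 (SPD 2 and 5 and LPD 1, 3 and 5, adjusted p 0.0539 to 0.0762).

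Several related members had opposite calls. Log2 ratios of CPM + 0.5 were compared per liver for the 57 tested pairs whose symbols differ only in their last character, a rule chosen after the data were seen. The rule goes by symbol alone, so not all pairs are paralogs. Some join different subunits of the same complex, such as the TRAP genes Ssr1 to Ssr4 or Rpn1 and Rpn2. The added 0.5 CPM shrinks ratios that hold a low gene, such as Sec31b. In 7 pairs one gene was called higher and the other lower, so a shift of their ratio follows from the calls, and their ratios are given as a description with no test. Of the other 50 pairs, 18 differed between diets by the exact two-sided permutation test over 924 labelings (adjusted over all 57 pairs). That adjustment kept the 7 opposite pairs, all at the smallest possible p, which eases the threshold for the others. Edem1 to Edem2, Ssr1 to Ssr4 and Ssr3 to Ssr4 lay nearest it (permutation adjusted p 0.0411 to 0.0444) and are thus uncertain. Except for pairs among Ssr1, Ssr3 and Ssr4, each of the 18 held a called gene, so part of its shift follows from that call. The Derl1 to Derl2 log2 ratio was 0.35 ± 0.10 in SPD and 1.12 ± 0.12 in LPD livers (SD, n = 6), and that of Sec31a to Sec31b was 4.29 ± 0.24 and 5.33 ± 0.15. Edem2 stood above Edem3 by 0.80 ± 0.12 in SPD livers and by 0.28 ± 0.13 in LPD livers. Ubqln1 to Ubqln2 shifted by 0.39, Ubqln2 to Ubqln4 by -0.48, Ube2d1 to Ube2d3 by -0.45 and Hspa2 to Hspa5 by -1.0.

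In other pairs only 1 gene was called, so a test of their ratio is not independent of that call. Ero1a to Ero1b shifted by -0.74 and Hspa5 to Hspa8 by 0.56, the ER against the cytosolic Hsp70, both without overlap (exact permutation p = 0.00216, the smallest this design allows, adjusted p = 0.00771). Dnajc1 to Dnajc3 shifted by -0.49, also without overlap. For Stt3a and Stt3b, where the second alone was called, the shift of -0.11 did not pass (exact permutation p = 0.141, adjusted p = 0.214). The log2 ratio of Pdia3 to Pdia4, which both rose, was 1.03 ± 0.05 in SPD and 1.04 ± 0.11 in LPD livers. With the 4 SP1 and 4 LP4 libraries alone none of the pairs passed, where 4 against 4 livers allow no exact p under 0.0286 (smallest adjusted p 0.0814). The 7 pairs with opposite calls kept their sign there, with shifts of 0.357 to 1.05 in size, against 0.395 to 1.04 in all livers.

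**Figure D4:**
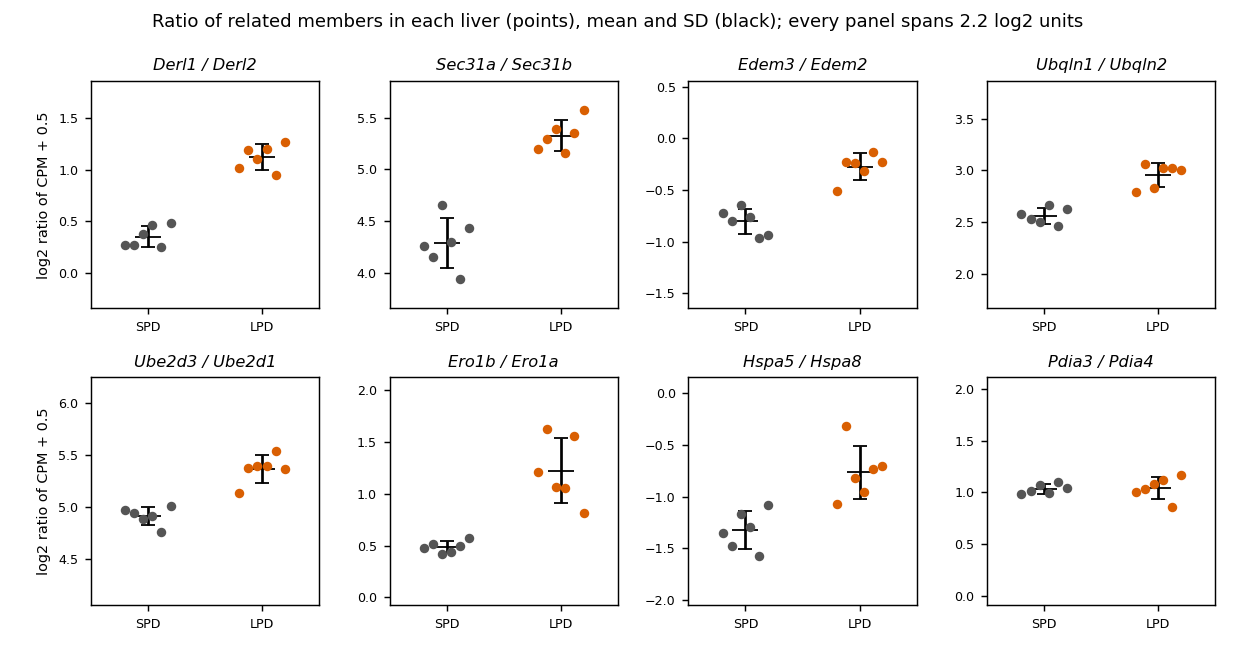
Log2 ratio of CPM + 0.5 of related members in each liver (points), with mean and SD (n = 6) in black, for SPD (grey) and LPD (orange); each panel spans the same height. The ratios of Edem3 to Edem2, Ube2d3 to Ube2d1 and Ero1b to Ero1a are drawn the other way round from the text. In every panel except Pdia3 to Pdia4 no LPD liver overlaps an SPD liver.

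The LPD livers differed in how far the risen members rose. The median over the 8 chaperones of log2 CPM minus the gene's SPD mean was 0.72 in LPD replicate 2 and 0.53 in LPD replicate 5, and from 0.28 to 0.43 in the other LPD livers. SPD livers lay between -0.13 and 0.14. For the disulfide-forming enzymes the LPD values ran from 0.18 to 0.55 and for membrane ERAD from 0.093 to 0.26, with LPD replicates 2 and 5 highest in both roles. Among the 54 risen members, LPD replicate 2 was the highest LPD liver for 36 (66.7%) and LPD replicate 5 for 15 (27.8%). Over all 2850 risen genes these shares were 35.1% and 22.1%. LPD replicate 1 was the lowest for 24 of the 54 (44.4%, against 26.7% of all risen genes). LPD replicates 2 and 5 also had the lowest sums of all 12 livers for stellate markers (333.5 and 347 CPM, the others at least 443.8), endothelial markers (220.3 and 223.1 CPM, the others at least 235.5) and macrophage markers (311.6 and 296.4 CPM, the others at least 335.5). The part of these markers in the spread of the LPD livers was not tested.

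**Figure D5:**
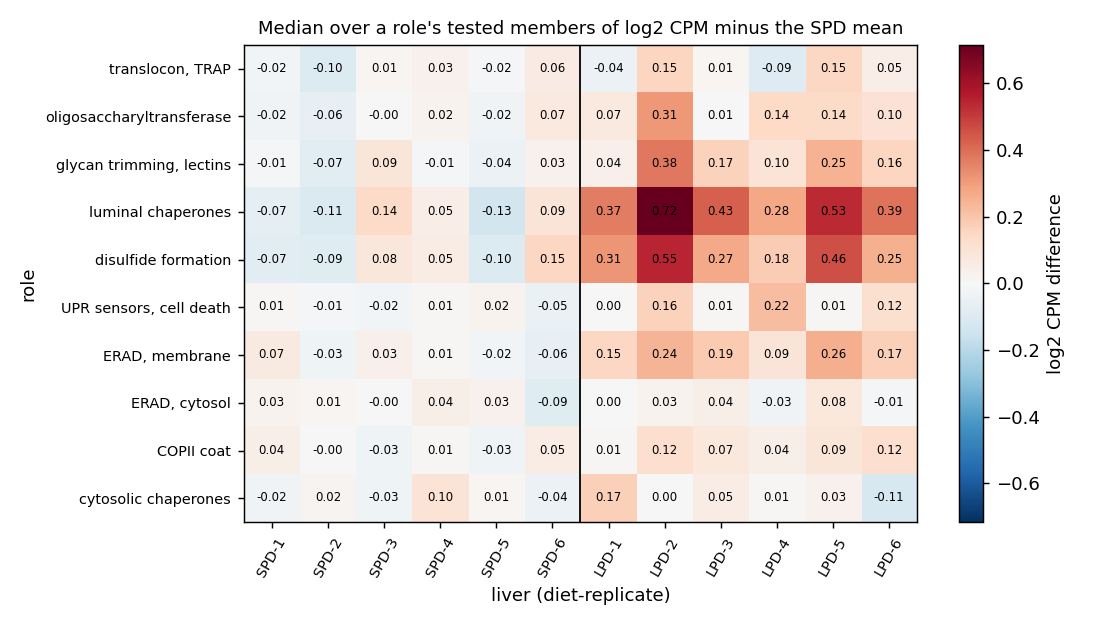
Median over the tested members of a role of log2 CPM minus the gene's SPD mean, for each role (rows) and each of the 12 livers (columns), with the value printed in each cell and red for higher. Luminal chaperones and disulfide-forming enzymes are highest in LPD replicates 2 and 5 (0.72 and 0.53, 0.55 and 0.46), whereas cytosolic ERAD stays within 0.09 of 0 in every liver.

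Secretory genes that the map does not list were counted in 5 lists, to be read against the 20.7% higher and 19.2% lower over all tested genes. Cargo receptors and retrieval factors had 6 of 13 tested genes higher (46.2%) and 1 lower (median 0.10), led by Mcfd2, the partner of Lman1 in exporting coagulation factors (0.48 ± 0.06, adjusted p = 1.2e-05). The retrieval receptor Kdelr2 rose by 0.21 ± 0.06 and Kdelr3 was lower at means of 0.914 and 0.349 CPM (-1.37 ± 0.35). Other ER foldases had 4 of 21 higher (19%) and 8 lower (38.1%; median -0.076). Erp44 (0.41 ± 0.07), Creld2 (0.55 ± 0.16), Serp1 (0.31 ± 0.07) and Fkbp2 (0.29 ± 0.06) rose, Selenof was lower (-0.33 ± 0.05, adjusted p = 0.00014), and Manf missed the threshold (0.36 ± 0.14, adjusted p = 0.0517). Dolichol pathway genes, which build the glycan donor, had 4 of 20 higher (20%) and none lower (median 0.12; Alg11 0.26 ± 0.08, adjusted p = 0.0117, and 0.0509 without LPD replicates 2 and 5). Signal recognition and signal peptidase genes had 2 of 13 higher (15.4%) and 1 lower (median 0.0025; Srp68 0.39 ± 0.08, adjusted p = 0.0011). Of 6 receptors for ER degradation by autophagy none was higher and 2 were lower (median -0.097; Rtn3 -0.29 ± 0.05, adjusted p = 0.00027). The difference between these lists and the members of the map was not tested.

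Levels of the tested members in SPD livers ran from 0.529 to 1011 TPM (abundance per length), with a median of 37.0 TPM. P4hb was followed by the cytosolic Hspa8 (736 TPM) and Hsp90ab1 (614 TPM), then by Calr (362 TPM), Herpud1 (329 TPM) and Skp1 (328 TPM), a subunit of ubiquitin ligases. In all, 24 members reached 100 TPM and 25 were under 10 TPM. Of the 15 members that were not tested, 11 had no count in any library, among them Cryaa, Dnajc5b, Dnajc5g, Gm15266, Lman1l, Mapk10, Sel1l2, Tram1l1, Ube2dnl1 and Ube2dnl2. The other 4, Fbxo2, Ube2d2b, Calr4 and Gm49320, reached at most 12, 2, 2 and 26 counts.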

How the data were processed

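Whole livers of 12 mice, 6 per diet, were compared. Per the labels' protocols, frozen livers gave TRIzol RNA, freed of DNA by DNase I, for Illumina TruSeq libraries. The submitters' processing notes name TopHat, DESeq2 and mm10. Not given in the sources used here are their versions, the counting program and how it treated strand and multiply mapped reads, so reads of near-identical, overlapping or antisense genes may be shared. The deposited values are expected counts (estimated counts) per gene that the authors did not scale between libraries, and 17.1% to 18.9% of the nonzero values in a library were not whole. Counts are per gene, so exons, introns and UTRs are not told apart.

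Counts were rounded and analysed with edgeR 4.0.16 (R 4.3.3): filterByExpr (minimum count 10, minimum total 15), TMM scaling and the quasi-likelihood F test of LPD against SPD over 13768 genes, with Benjamini-Hochberg adjustment over all of them and a threshold of 0.05. The SE was taken from the log2 fold change and the F statistic (its size over the root of F). CPM uses TMM-scaled totals of the tested genes, TPM the deposited gene lengths, and per-liver role medians log2 CPM with a prior count of 2. Pair ratios add 0.5 CPM. The labels give replicates as separate mice (6 per group), and no pair of libraries of a diet agreed within sampling noise. The edgeR procedure was tested on simulated data, where changes of genes with few counts were often missed, so a member of low level that did not pass may still differ. Coordinates are those of GENCODE M21 (GRCm38), and promoter sequences those of RefSeq (GRCm38.p6). C-terminal ER retrieval signals were not analysed here. Values of some members are not reported here.

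The members, role lists, neighbouring lists, tests and naming rule were chosen with earlier results of these data known. Named by rule were the 3 called members of each role that had the lowest adjusted p; the 3 largest and 3 smallest fold changes among called members whose mean log2 CPM was 1 or more; Hspa5, Hsp90b1, Calr, Canx, Pdia4, Herpud1, Xbp1, Ern1, Atf6, Sel1l, Syvn1, Hspa8, Sec61b, Sec23b and Vcp; and, per neighbouring list, the called gene of lowest adjusted p. All other named genes, the roles of Tram1, Tram1l1, Ube2dnl1 and Ube2dnl2, the pair rule and the promoters printed were chosen after values were seen.

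Alternatives were scaling in edgeR by upper quartiles or by DESeq2 size factors, testing without a low-count filter or with 1 CPM in at least 6 libraries, DESeq2 1.42.0 (Wald test), limma 3.58.1 (voom, sample weights), a block on the replicate number, leaving out 1 library at a time, LPD replicate 1 counted as SPD, the SP1 and LP4 libraries alone, and LPD replicates 2 and 5 left out. For pair ratios, the choices of libraries were repeated as alternatives added after the data were seen.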

Additional observations from a re-analysis of the deposited data

Results flagged for a closer look

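Among 202 groups of 6 livers checked (member CPM and role medians), 17 held a library whose gap to the next value was above Dixon's 95% limit for 6 values, and chance gives about 1 in 20. LPD replicate 2 was the highest LPD liver in 9 of them. Its levels were 845 CPM for Calr, 92.1 for Ddost, 806 for Hspa5, 147 for Hyou1, 428 for Pdia3, 55.0 for Sec23b, 203.9 for Sec61a1, 118.3 for Ssr1 and 82.2 for Uggt1. The same liver had the lowest sum of stellate markers, 333.5 CPM, and the part of this in those levels was not tested. SPD replicate 6 stood apart with 76.8 CPM for Ddost and 113 for Stt3a, above the other SPD livers, with 35.6 CPM for Ngly1, below them, and with the lowest median of the cytosolic ERAD genes (-0.088 on the log2 scale). The other 4 were Dnajb2 in SPD replicate 5 (50.04 CPM, high), Lman2 in SPD replicate 2 (189.8 CPM, low), and Erp29 (38.7 CPM) and Ube2d1 (9.16 CPM) in LPD replicate 1, both high.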

How the results depend on the processing

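Of the 80 called genes followed, 51 kept their call under every alternative run. With DESeq2 or limma-voom the 54 higher and 21 lower members were all called again, with the replicate block 53 and 19, with LPD replicate 1 counted as SPD 50 and 16, and leaving out 1 library 50 to 53 and 18 to 20. Same-numbered livers of the diets did not deviate together (r from -0.054 to 0.097; 2 of 6 SPD livers correlated best with their own number). In the 4 SP1 and 4 LP4 libraries alone, 1827 genes were higher and 1693 lower over all genes, 41 members were higher and 12 lower, cytosolic ERAD had 3 higher and 3 lower, oligosaccharyltransferase 1 higher, glycan trimming 1 lower, cytosolic chaperones 2 lower, the translocon 0 lower, and 0 gene pairs passed, with no exact p under 0.0286 possible. Without LPD replicates 2 and 5, oligosaccharyltransferase and the translocon each had 1 higher, glycan trimming 1 and cytosolic chaperones 2 lower, and the membrane ERAD median was 0.14. Cytosolic chaperones had 2 lower with no filter and 1 with LPD replicate 1 counted as SPD. The translocon had 2 lower with upper quartile scaling, the 1 CPM filter and DESeq2, and 3 with limma-voom. Leaving out 1 library gave 1 to 3 higher for oligosaccharyltransferase, 0 to 2 lower for the translocon, 1 to 2 for glycan trimming and 2 to 4 for cytosolic chaperones. It left 21 to 26 pairs past the threshold, the 7 with opposite calls included, against 25 in all livers. Signs turned for genes that were not called: Edem1 -0.010 (limma-voom), -0.098 (without LPD replicates 2 and 5) and from -0.053 to 0.076 (1 library left out), Derl3 -0.045 (without LPD replicates 2 and 5), and Erp29 0.00013 (limma-voom), 0.0023 (SP1 and LP4 libraries) and from -0.038 to 0.024 (1 library left out). The cause of these differences was not tested, and fewer libraries leave less power.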
